A study of Mus musculus with 6 samples.

Results

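The TRIM (tripartite motif) ubiquitin ligases were examined in neutrophils sorted from mouse bone marrow. Members were taken as the rows of the deposited gene table whose symbol is Trim followed by a digit and whose transcripts include a protein-coding one, which gave 68 of 55401 genes. Of these, 43 had FPKM above 0 in all 6 libraries, 8 were above 0 in some libraries, and 17 were listed at 0 in all 6. FPKM counts fragments relative to the length of the transcript and to the depth of the library, so that levels of different genes can be set side by side. A total of 26 members reached a mean of at least 1 FPKM and were tested, among 9632 genes tested in all.

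The Lig group consisted of 3 libraries from C57BL/6 wild-type males of 8 weeks of age whose second molars, upper and lower on both sides, had been tied with silk for 14 days to induce periodontitis. The Ctrl group consisted of 3 libraries from mice of the same strain, sex and age without ligatures. The Ctrl mice are described as untreated, so that placing the ligatures and the gum inflammation cannot be told apart in this comparison. Cells were sorted as CD45+ CD11b+ Ly6G+, and each library was a pool of neutrophils from 5 mice; p-values measure the spread between these pools. By setting Lig against Ctrl the study asked whether marrow neutrophils differ in mice with local chronic inflammation.

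Most TRIM proteins share a RING domain that carries the ubiquitin ligase activity, B-box zinc fingers and a coiled coil through which they dimerise. They differ in their C-terminal part. Many members with a C-terminal PRYSPRY domain are induced by interferon and act in antiviral sensing, either by tagging sensors and adaptors with ubiquitin or by binding viral proteins. Others repress transcription on chromatin (*Trim24*, *Trim28*, *Trim33*), act at the cytoskeleton, or are best known from red cell maturation (*Trim10*, *Trim58*). In the mouse, genes related to primate *TRIM5* lie side by side on chromosome 7.

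Total deposited counts were 50605309 to 61455112 per library, of which 65979 to 82808 fell on TRIM genes. Neutrophil markers were abundant, their sum over 10 genes being 103500 to 112800 FPKM in Lig and 83090 to 92070 FPKM in Ctrl, and 6 of the 10 passed the test upwards. Markers of cells that this sort should remove were also detected. The summed level of 11 erythroid markers was 395.8 to 506.3 FPKM in Lig, against 1313 to 1770 FPKM in Ctrl, and 9 of the 10 tested were called lower. The 10 B cell markers summed to 211.8 to 224 FPKM in Lig and 383.5 to 446.7 FPKM in Ctrl, with 9 of 10 called lower. T and NK cell markers (2 of 4 tested called lower) summed to 11.05 to 14.93 FPKM in Lig and 17.69 to 19.04 FPKM in Ctrl. Monocyte and macrophage markers (1 of 6 tested called lower) summed to 34.72 to 36.39 FPKM in Lig and 45.67 to 48.45 FPKM in Ctrl. No marker was at 0 in all libraries. In bulk libraries, fewer cells of a type and less RNA per cell cannot be told apart.

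Since many TRIM genes are interferon targets, the promoter windows of the family were searched, with earlier results of these data known. A window ran from 250 bases before to 50 bases after a RefSeq start on GRCm38.p6, and 53 of the 68 members had at least 1. The sequence searched was GAAA, any 2 bases and GAAA again, the core of the interferon-stimulated response element, which reads TTTC, any 2 bases and TTTC on the other strand. It was found in 9 of the 53 members (16.981%), against 3.993% of all 27025 genes with a window. The 9 were *Trim2*, *Trim5*, *Trim12a*, *Trim12c*, *Trim21*, *Trim26*, *Trim30a*, *Trim30d* and *Trim34a*, so that 6 of the 10 genes of the chromosome 7 cluster were among them. The stretches that hold the match are shown for the genes on which the results turn, with the match in capitals and the bases read in the direction of the gene. *Trim56*, which was also called higher, is shown as the member without a match. The first 5 stretches end at the base before the start, which is the RefSeq start throughout. The *Trim12a* match lies after that start but before the deposited gene, which begins at 104315466 on the minus strand.
Trim30a, chr7:104465194-104465273, minus strand: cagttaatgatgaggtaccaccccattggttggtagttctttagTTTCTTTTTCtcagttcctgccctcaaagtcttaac
Trim30d, chr7:104507850-104507929, minus strand: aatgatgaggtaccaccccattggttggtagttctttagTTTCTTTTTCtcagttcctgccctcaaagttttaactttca
Trim12c, chr7:104353350-104353429, minus strand: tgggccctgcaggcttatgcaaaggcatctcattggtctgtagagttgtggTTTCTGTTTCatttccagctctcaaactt
Trim5, chr7:104288107-104288186, minus strand: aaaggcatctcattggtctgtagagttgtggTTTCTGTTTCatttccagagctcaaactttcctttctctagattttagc
Trim56, chr5:137116208-137116287, minus strand: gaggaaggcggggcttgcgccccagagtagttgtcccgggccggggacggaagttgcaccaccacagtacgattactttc
Trim34a, chr7:104244459-104244488, plus strand, just after the start: gtttggagTTTCAGTTTCttttctctgcag
Trim12a, chr7:104315464-104315493, minus strand, just after the start: agttgtggTTTCTGTTTCatttccagagct
Trim21, chr7:102565448-102565477, minus strand, just after the start: tctgagagGAAACTGAAAGTGAAAtttgga
Trim26, chr17:36836966-36837025, plus strand, before the start: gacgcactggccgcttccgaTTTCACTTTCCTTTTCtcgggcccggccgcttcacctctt

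In these stretches *Trim30a* and *Trim30d* carried the same match, TTTCTTTTTC, and *Trim5*, *Trim12a* and *Trim12c* carried TTTCTGTTTC. *Trim21* and *Trim26* each held 2 overlapping matches, which the longer capitals span. Over the 250 bases before the start, *Trim30a* and *Trim30d* were 89.02% identical (227 of 255 aligned positions) and *Trim12c* and *Trim5* 81.11% identical. The *Trim30b* window had no match, but its RefSeq start lies inside the deposited gene rather than at the end of it. *Trim28* also had no match, and its window (13023902 to 13024201) lies inside its deposited gene, which begins at 12999114. These windows may not be the promoters used. The interferon gamma site TTCNNNGAA, present in 8.298% of all windows on either strand, was found in 0 of the tested members that have a window. A match describes letters in a window and was not tested as a binding site.

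The sum of all TRIM transcripts overlapped between groups in FPKM, and the share of the chromosome 7 cluster in it did not. Summed over the 68 members, the level was 223.27, 231.33 and 231.81 FPKM in the Lig libraries, against 244.42, 227.93 and 237.4 FPKM in the Ctrl libraries. Rescaled to TPM the sums were 617.1, 645.9 and 655.8 in Lig, against 719.7, 664.8 and 709.9 in Ctrl, and every Lig library was below every Ctrl library. The 10 genes of the chromosome 7 cluster held 33.23%, 33.34% and 32.29% of that sum in Lig and 24.21%, 29.06% and 25.72% in Ctrl. In every Lig library the cluster's share was above that of every Ctrl library. The cluster summed to 74.19, 77.13 and 74.84 FPKM in Lig, against 59.17, 66.24 and 61.05 FPKM in Ctrl, while the other 58 members summed to 149.08, 154.2 and 156.97 FPKM in Lig, against 185.25, 161.69 and 176.35 FPKM in Ctrl. These shares and sums are descriptions, with no test.

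**Figure D1:**
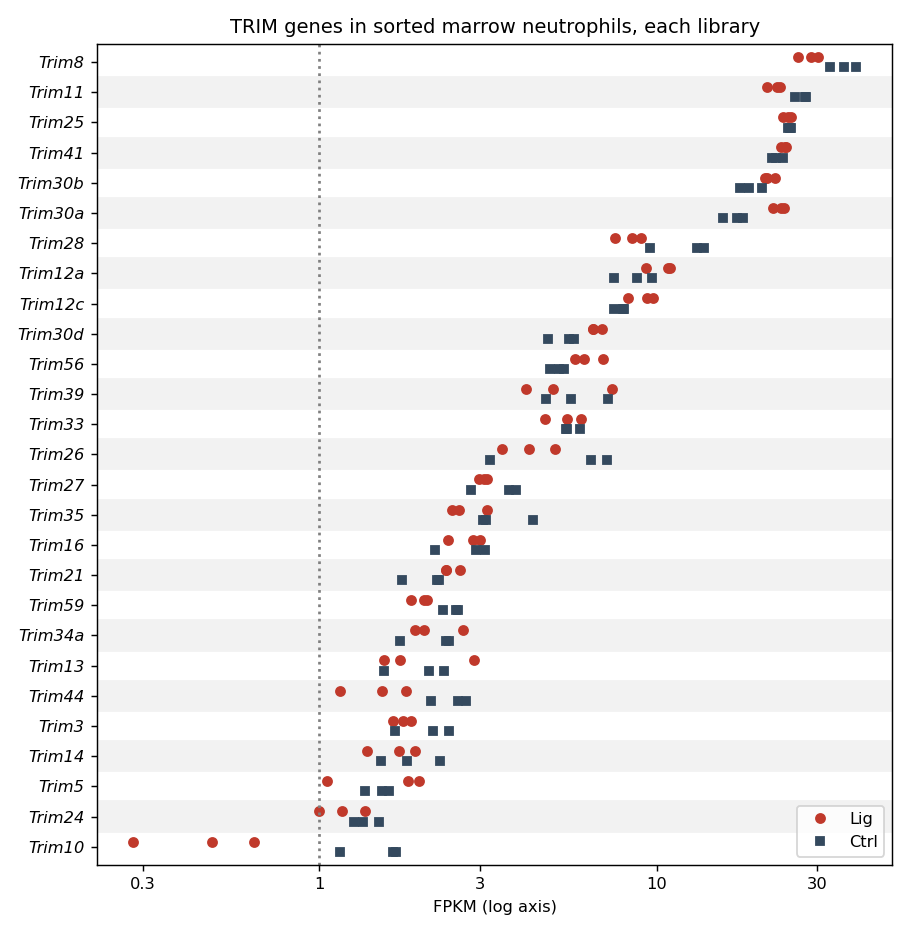
FPKM on a log axis of the 26 tested TRIM genes and of *Trim10*, ordered by mean level, with 1 point per library (red circles Lig, dark squares Ctrl, 3 each) and the filter of 1 FPKM as a dotted line. The 6 genes at the top lie between 15.79 and 39.12 FPKM, the red points of *Trim30a* lie right of its squares, and those of *Trim10* lie left.

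The 6 most abundant members were *Trim8*, *Trim25*, *Trim41*, *Trim30a*, *Trim11* and *Trim30b*, which held 61.94% to 63.87% of the family's FPKM in Lig and 60.28% to 63.38% in Ctrl. By mean level the order in Lig was *Trim8* (28.3 FPKM), *Trim25* (24.4), *Trim41* (23.9), *Trim30a* (23.1), *Trim11* (22.4) and *Trim30b* (21.6), in which the 5 genes after *Trim8* overlap their neighbours. In Ctrl *Trim8* (35.9 FPKM) was followed by *Trim11* (27.0), *Trim25* (24.9), *Trim41* (22.7), *Trim30b* (19.0) and *Trim30a* (17.1). In Ctrl *Trim30b* and *Trim30a* overlap, and the genes above them do not overlap their neighbours. *Trim30a* thus ranked 4 in Lig and 6 in Ctrl.

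Of the 26 tested members, 2 rose and 0 fell in Lig (edgeR quasi-likelihood, Benjamini-Hochberg adjusted p under 0.05), which is 7.69% against 10.4% of all genes tested (3.96% called higher, 6.43% called lower). The share is near the background and is no result about the family as a whole. At an unadjusted p under 0.05 there were 7 members higher and 4 lower, beside 12.9% and 15.5% of all genes. The fitted log2 fold change was positive for 14 members and negative for 12, with a median of 0.03, beside -0.001 over all genes. FPKM groups did not overlap for 11 members, with Lig above in 6 and below in 5. Of all tested genes 34.8% did not overlap, 9.9% with Lig above and 24.9% with Lig below. The balance of calls moved with the scaling. Scaling by library size alone gave 1 member higher and 3 lower, beside 1.74% and 9.52% of all genes. TPM (FPKM rescaled to the same total in every library) also gave 1 and 3, beside 1.01% and 12.8% of all genes. DESeq2 gave 6 and 3, beside 7.78% and 10.3% of all genes. Rescaling to TPM moved the median of all genes to -0.144.

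**Figure D2:**
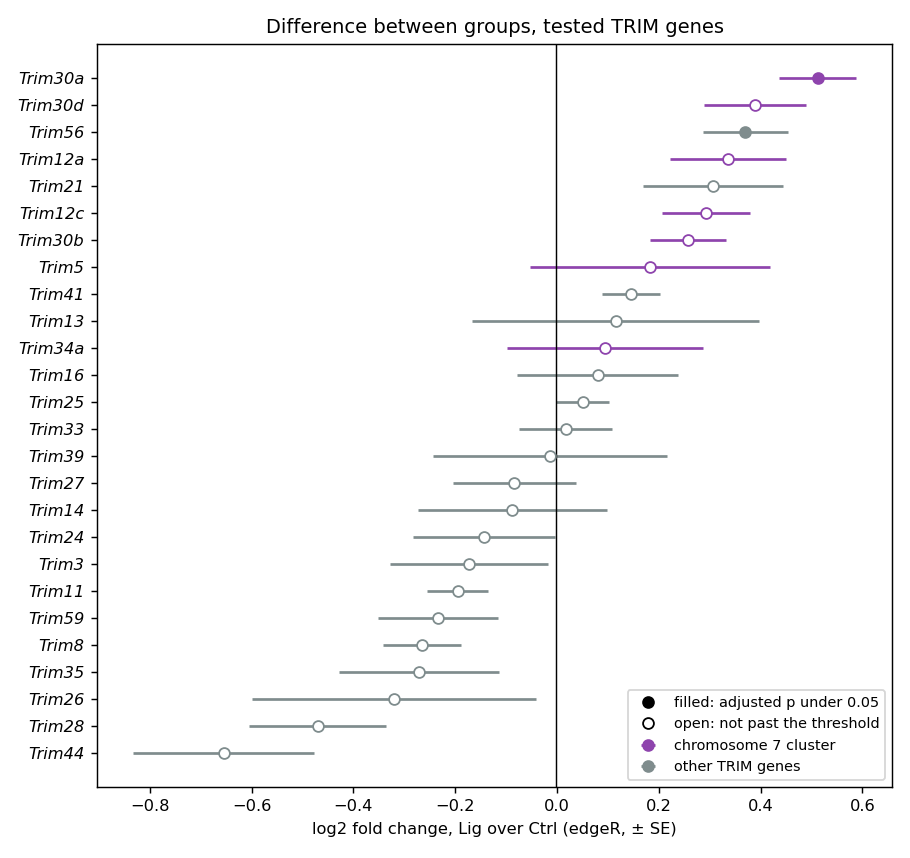
Log2 fold change of Lig over Ctrl (edgeR, bars ± SE) for the 26 tested TRIM genes, sorted by size, with the chromosome 7 cluster in purple and filled points for an adjusted p under 0.05. *Trim30a* and *Trim56* are the filled points, and the 7 cluster genes lie right of 0 in this fit, of which *Trim34a* and *Trim5* turn negative with TPM.

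*Trim30a* was the member with the clearest difference. It is an interferon-induced ligase that in mouse macrophages directs the degradation of the TAK1 adaptors TAB2 and TAB3, and it lies on chromosome 7 at 104409025 to 104465193 on the minus strand of GRCm38. Its level was 23.32, 23.89 and 22.14 FPKM in the Lig libraries, against 15.79, 18.05 and 17.33 FPKM in the Ctrl libraries. Each Lig library was above each Ctrl library. The means were 23.1 ± 0.893 FPKM in Lig and 17.1 ± 1.15 FPKM in Ctrl (SD, n = 3 each), and the log2 fold change was 0.51 ± 0.08 (SE, edgeR adjusted p = 0.0109). The call was kept with each of the 6 libraries left out (0.45 to 0.57 on the log2 scale, adjusted p = 0.0171 to 0.0436 by edgeR). With genes from 0.1 FPKM tested, it was lost without Lig replicate 3 and without Ctrl replicate 3. Of the 100-base windows of its longest coding transcript, 4.793% occur also in *Trim30d*, so that reads from that share of its length could be split between the genes.

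The other *Trim30* genes lie next to it. *Trim30d* had 6.9, 6.49 and 6.47 FPKM in Lig, against 4.77, 5.5 and 5.69 FPKM in Ctrl, without overlap, and its log2 fold change of 0.39 ± 0.10 did not pass (edgeR adjusted p = 0.0517). It passed when DESeq2 size factors replaced TMM, when counts were divided by 4, and with DESeq2. *Trim30d* overlaps a pseudogene on the same strand, *Gm16464*, which had a mean of 1.627 FPKM. *Trim30b* had 21.02, 22.43 and 21.31 FPKM in Lig, against 17.71, 20.51 and 18.77 FPKM in Ctrl (log2 fold change 0.26 ± 0.08, edgeR adjusted p = 0.0705), again with the Lig libraries above. No 100-base window of *Trim30b* was shared with another gene. *Trim30c* was close to 0, with 0.06, 0 and 0.17 FPKM in Lig, against 0, 0 and 0.04 FPKM in Ctrl, and was not tested.

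*Trim12a*, *Trim12c* and *Trim5* are the mouse relatives of primate *TRIM5*, whose product binds retroviral capsids. *Trim12c* stood at 8.24, 9.73 and 9.39 FPKM in Lig, against 7.5, 7.97 and 8.03 FPKM in Ctrl, with the Lig libraries above (log2 fold change 0.29 ± 0.09, edgeR adjusted p = 0.0715). *Trim12a* stood at 10.82, 9.32 and 10.99 FPKM in Lig, against 8.78, 9.68 and 7.49 FPKM in Ctrl, and the groups overlapped (0.34 ± 0.11, adjusted p = 0.105). For *Trim5* the values were 1.05, 1.97 and 1.83 FPKM in Lig, against 1.53, 1.61 and 1.37 FPKM in Ctrl (0.18 ± 0.24, adjusted p = 0.657). These genes share sequence: 8.38% of the 100-base windows of *Trim12a*, 7.608% of *Trim12c* and 10.63% of *Trim5* occur in another TRIM gene, and 12.739% of those of *Trim5* when predicted genes are counted, so that the split of reads among them is uncertain to that extent.

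The cluster also holds *Trim34a*, *Trim34b* and *Trim6*. *Trim34a* was at 2.05, 2.66 and 1.92 FPKM in Lig, against 2.42, 2.38 and 1.74 FPKM in Ctrl (log2 fold change 0.09 ± 0.19, edgeR adjusted p = 0.795). *Trim34b* was at 0.36, 0.24 and 0.07 FPKM in Lig, against 0.32, 0.21 and 0.17 FPKM in Ctrl, and 32.581% of its windows occur in *Trim34a*. *Trim6*, which makes unanchored ubiquitin chains that activate the kinase IKK-epsilon, was at 0.37, 0.4 and 0.55 FPKM in Lig, against 0.35, 0.33 and 0.42 FPKM in Ctrl, with overlapping groups. Neither *Trim34b* nor *Trim6* reached the filter.

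Over the cluster, which spans 104218793 to 104507849 on chromosome 7, 7 of 10 genes were tested and 1 was called higher (14.3% of the tested, beside 3.96% of all genes). All 7 fitted log2 fold changes were positive, with a median of 0.29. With the filter of 5 FPKM 5 of the 7 were tested, without *Trim34a* and *Trim5*. The signs of the genes tested held under the alternatives with 3 exceptions, TPM (*Trim34a* and *Trim5* negative) and the fits without Lig replicate 2 or without Ctrl replicate 3 (*Trim34a* negative). With TPM, where all genes had a median of -0.144, all 7 lay above that median. The median of the cluster ranged from 0.133 to 0.353 over the alternatives. Outside the cluster, 1 of 19 tested members was called higher, 7 fitted changes were positive, 12 were negative and the median was -0.09.

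**Figure D3:**
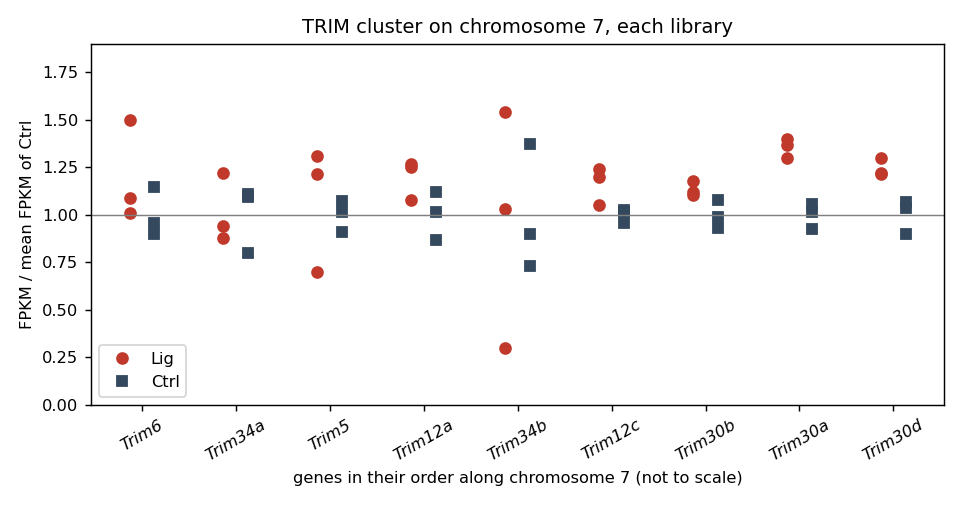
FPKM of the chromosome 7 cluster genes, each divided by the gene's mean in Ctrl (line at 1), with 1 point per library (red circles Lig, dark squares Ctrl, 3 each) and genes in chromosomal order, not to scale. For *Trim12c*, *Trim30b*, *Trim30a* and *Trim30d* the circles lie above the squares, for the other genes they overlap, and *Trim30c* is left out because its mean in Ctrl is close to 0.

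*Trim56* on chromosome 5 (137105644 to 137116209, minus strand) was the other member called. Its product is an interferon-induced ligase that promotes signalling through the DNA-sensing adaptor STING. The level was 5.72, 6.95 and 6.09 FPKM in Lig, against 5.14, 4.83 and 5.32 FPKM in Ctrl, without overlap. The means were 6.25 ± 0.631 FPKM in Lig and 5.1 ± 0.248 FPKM in Ctrl (SD, n = 3 each), with a log2 fold change of 0.37 ± 0.08 (SE, edgeR adjusted p = 0.0355). With 1 library left out, the log2 fold change stayed between 0.29 and 0.426. In these fits 278 to 694 of 9632 genes were called, against 1000 with all 6 libraries. The call of *Trim56* was kept without Lig replicate 1 (adjusted p = 0.0428 by edgeR). It was lost without Lig replicate 2 (0.0668), Lig replicate 3 (0.0895), Ctrl replicate 1 (0.0979), Ctrl replicate 2 (0.0891) and Ctrl replicate 3 (0.0863). It was also lost with library size alone, with the filter of 5 FPKM and with limma on FPKM or TPM.

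Other members tied to interferon signalling did not pass. *Trim25*, which attaches ubiquitin to the RNA sensor RIG-I, was at 25.04, 23.68 and 24.6 FPKM in Lig, against 24.96, 25.03 and 24.57 FPKM in Ctrl (log2 fold change 0.05 ± 0.05, edgeR adjusted p = 0.571), and its sign turned with the scaling. *Trim21*, an antibody receptor inside the cell, was at 2.37, 2.62 and 2.37 FPKM in Lig, against 2.23, 2.26 and 1.76 FPKM in Ctrl (0.31 ± 0.14, adjusted p = 0.195), with the Lig libraries above. *Trim14*, an adaptor of the mitochondrial antiviral protein MAVS, was at 1.38, 1.72 and 1.92 FPKM in Lig, against 2.28, 1.52 and 1.82 FPKM in Ctrl (-0.09 ± 0.19, adjusted p = 0.801). *Trim14* overlaps *Nans* on the opposite strand, and without a statement on strand their reads cannot be told apart. *Trim26*, which targets nuclear IRF3, was at 5.0, 3.49 and 4.18 FPKM in Lig, against 6.38, 3.21 and 7.15 FPKM in Ctrl (-0.32 ± 0.28, adjusted p = 0.505), and Ctrl replicate 2 was the lowest of the 6.

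Over the 16 members listed as interferon-linked, 12 were tested and 2 rose (16.7%, beside 3.96% of all genes called higher) while 0 fell. Of the 12 fitted changes 10 were positive and 2 negative, with a median of 0.28. With library size alone or limma on FPKM 9 were positive, 3 negative and 1 called higher, and with TPM 7 were positive, 5 negative and 1 called higher, at a median of 0.12. In each of these fits 10 of the 12 lay above the median of all genes. FPKM groups were apart with Lig above in 6 of the 12 and with Lig below in 0, beside 9.9% and 24.9% of all tested genes. The list's members were chosen with results of these libraries known, so that their direction is not independent evidence. The 10 neutrophil markers moved the same way, with a median log2 fold change of 0.38, and their part in these levels was not tested.

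The promoter match was set beside the fold changes of the 19 tested members that have a window. Among the 8 with the response element core, 7 had a positive log2 fold change and the median was 0.30, whereas 5 of the 11 without it were positive, with a median of -0.01. Among all tested genes with a window, the median was 0.03 for the 274 with the match and 0.003 for the 6282 without, and 8.394% and 4.187% of them were called higher. *Trim26* was the member with a match and a negative fold change, and *Trim56* the member called higher without one. *Trim30a* and *Trim30d* are neighbours with related promoters (89.02% identical). *Trim12c*, *Trim5* and *Trim12a* of the same cluster are also related (61.81% to 81.11% identical). The members within each of these sets are not independent of each other. *Trim34a* was 46.67% to 49.44% identical to these genes. *Trim21* and *Trim26* lie outside the cluster, and their windows were not aligned.

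**Figure D4:**
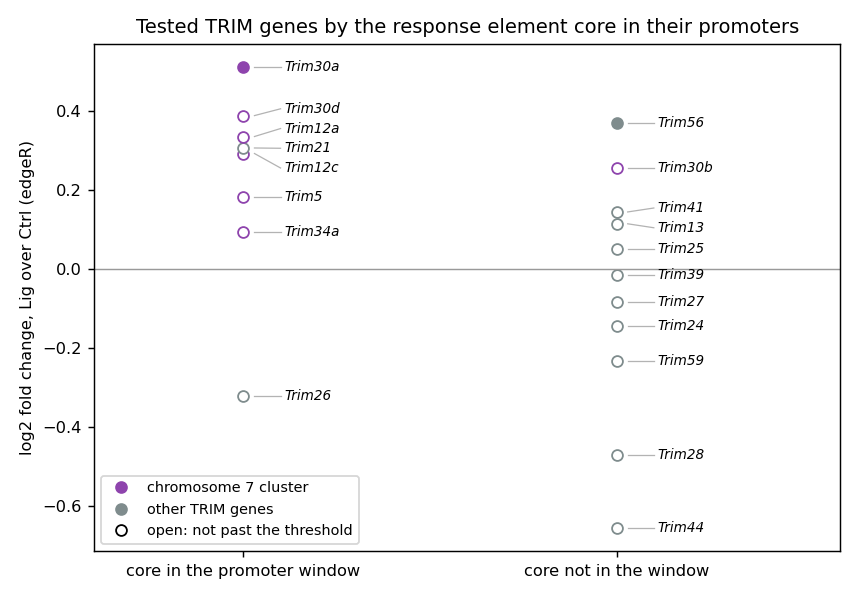
Log2 fold change of Lig over Ctrl (edgeR) of the 19 tested TRIM genes with a promoter window, with the response element core in the window at left (8 genes) and without it at right (11 genes), purple for the chromosome 7 cluster and filled for an adjusted p under 0.05. At left 7 of 8 points lie above 0 (of which *Trim34a* and *Trim5* turn negative with TPM) and at right 5 of 11. The *Trim30b* and *Trim28* windows do not lie at the start of the deposited genes.

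Among members that act in cytokine signalling, *Trim8* was the most abundant TRIM gene of both groups. It promotes activation of the kinase TAK1 and acts on the cytokine inhibitor SOCS1. *Trim8* had 26.21, 28.66 and 30.13 FPKM in Lig, against 39.12, 32.61 and 35.91 FPKM in Ctrl. Each Lig library was below each Ctrl library, and the log2 fold change of -0.26 ± 0.08 did not pass (edgeR adjusted p = 0.0715). It passed, lower in Lig, with library size alone, with TPM and with DESeq2. *Trim41*, which targets the influenza nucleoprotein in human cells, had 24.21, 23.42 and 24.0 FPKM in Lig, against 22.01, 22.56 and 23.65 FPKM in Ctrl (0.14 ± 0.06, adjusted p = 0.15).

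*Trim11* followed the pattern of *Trim8*. It had 22.8, 21.2 and 23.16 FPKM in Lig, against 27.74, 25.71 and 27.58 FPKM in Ctrl, without overlap (log2 fold change -0.19 ± 0.06, edgeR adjusted p = 0.0816). It was called lower under 5 of 17 alternatives, among them limma on log2(FPKM + 1) and library size alone. *Trim44*, named after its values were seen, had the most negative log2 fold change of the 26. Its product lacks a RING and stabilises other proteins, MAVS among them. *Trim44* had 1.15, 1.81 and 1.53 FPKM in Lig, against 2.72, 2.15 and 2.58 FPKM in Ctrl (-0.66 ± 0.18, adjusted p = 0.0601). The groups were apart, and it too was called lower with library size alone, with TPM and with DESeq2. Of the 15 members listed under signalling, 7 were tested, 0 were called, 2 fitted changes were positive and 5 negative, the median was -0.23, and FPKM groups were apart with Lig below in 3, beside 24.9% of all tested genes.

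The chromatin members form a family of transcriptional cofactors with a PHD finger and a bromodomain. *Trim28* (KAP1) is recruited by KRAB zinc finger proteins to silence endogenous retroviruses. It had 7.54, 8.43 and 9.0 FPKM in Lig, against 13.79, 9.57 and 13.16 FPKM in Ctrl, and its log2 fold change was -0.47 ± 0.14 (edgeR adjusted p = 0.0689). The groups were apart, with Ctrl replicate 2 nearest to the Lig libraries, and without that replicate *Trim28* was called lower at -0.61 (adjusted p = 0.021). It was also called lower with DESeq2 on all 6 libraries (-0.47, DESeq2 adjusted p = 0.0101). *Trim33*, a partner of SMAD4 that also acts in blood formation, had 4.68, 5.97 and 5.42 FPKM in Lig, against 5.91, 5.4 and 5.41 FPKM in Ctrl (0.02 ± 0.09, adjusted p = 0.926). *Trim24*, a cofactor of nuclear receptors, had 1.0, 1.37 and 1.17 FPKM in Lig, against 1.5, 1.35 and 1.27 FPKM in Ctrl (-0.14 ± 0.14, adjusted p = 0.556). It was the least abundant member tested, with a mean of 1.277 FPKM over the 6 libraries. *Trim66* was above 0 in 1 library of the 6.

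*Trim10* lay just under the filter, with a mean of 0.9817 FPKM. In the mouse its product is required for the terminal differentiation of erythroid cells, and the gene lies on chromosome 17 at 36869574 to 36877833. It had 0.28, 0.64 and 0.48 FPKM in Lig, against 1.69, 1.15 and 1.65 FPKM in Ctrl, so that the groups were far apart. The means were 0.467 ± 0.18 FPKM in Lig and 1.5 ± 0.301 FPKM in Ctrl (SD, n = 3 each), a ratio of 0.311. When genes from 0.1 FPKM were tested, *Trim10* was the 1 member called lower, at -1.55 ± 0.32 on the log2 scale (edgeR adjusted p = 0.0392), where 3.28% of the 16707 genes were called lower and 5.61% in either direction. The call was lost with any 1 library left out: the adjusted p was 0.0681, 0.0509 and 0.114 without Lig replicates 1, 2 and 3, and 0.115, 0.0575 and 0.126 without Ctrl replicates 1, 2 and 3. The log2 fold change stayed between -1.828 and -1.295 in these fits, which were added after seeing the data. In them 109 to 494 of the 16707 genes were called, against 938 with all 6 libraries. *Trim58*, which drives the loss of dynein from maturing erythroblasts, had 0, 0.11 and 0.1 FPKM in Lig, against 0.29, 0.24 and 0.29 FPKM in Ctrl, and rested on at most 45 deposited counts.

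The erythroid markers moved with both genes. Their median log2 fold change was -1.66 over the 10 tested, and that of the 10 B cell markers was -0.92. Within each group, the library with the lowest *Trim10* level also had the lowest erythroid sum, Lig replicate 1 with 395.8 FPKM and Ctrl replicate 2 with 1313 FPKM. The B cell sum was lowest in the same libraries, with 211.8 FPKM and 383.5 FPKM, so that this order is not particular to the erythroid markers. The part of these cells in the levels of *Trim10*, *Trim58* and the other lower members was not tested.

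**Figure D5:**
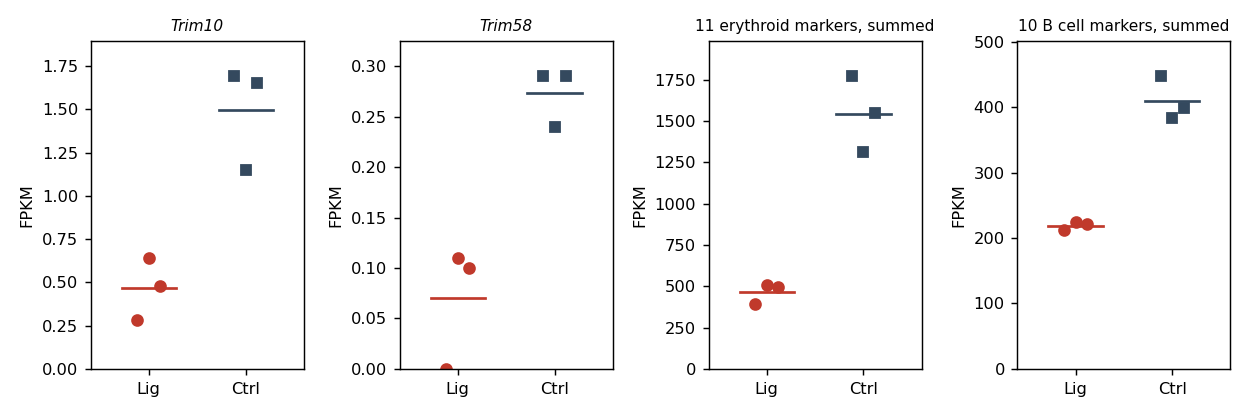
FPKM per library (red circles Lig, dark squares Ctrl, 3 each) and group means (lines) of *Trim10*, *Trim58*, the sum of 11 erythroid markers and the sum of 10 B cell markers, each on its own axis from 0. In all 4 panels every Lig library lies below every Ctrl library, with *Trim10* at 0.28 to 0.64 FPKM in Lig and 1.15 to 1.69 FPKM in Ctrl.

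Some other low members lay on the same side, and for the rest the groups overlapped. Among 14 members with a mean of 0.1 to under 1 FPKM, groups were apart with Lig above in 0 and with Lig below in 6 (42.9%), against 2.93% and 19.3% of the 7056 genes in that range. Counting all 25 members above 0 and under 1 FPKM, 8 had Lig below and 0 above, where 11.4% and 1.85% of 15337 such genes did. Apart from *Trim10* and *Trim58* these were *Trim7*, *Trim36*, *Trim46*, *Trim47*, *Trim62* and *Trim72*, named to spell out the count. *Trim7* overlaps *Gm12184* (mean 7.278 FPKM) and *Trim72* overlaps *Gm15533* (mean 0.172 FPKM), both on the opposite strand. Without a statement on strand, reads from where they overlap cannot be told apart. *Trim36*, a ligase that acts on microtubules, had 0.23, 0.25 and 0.19 FPKM in Lig, against 0.42, 0.45 and 0.37 FPKM in Ctrl (edgeR adjusted p = 0.102 with genes from 0.1 FPKM). *Trim72*, a membrane repair protein of muscle, had 0.15, 0.15 and 0.2 FPKM in Lig, against 0.35, 0.47 and 0.21 FPKM in Ctrl. Apart from *Trim10*, these genes had at most 185 deposited counts in any library, and *Trim10* was the 1 member under 1 FPKM called with the filter at 0.1 FPKM or with none.

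The members that act at microtubules or in muscle (7 listed) gave 0 tested genes, and of the members with an NHL domain (4 listed) *Trim3* alone was tested, at 1.65 to 1.87 FPKM in Lig and 1.68 to 2.43 FPKM in Ctrl. The 17 genes listed at 0 in every library included *Trim38*, *Trim31* and *Trim40* of the immune members, the muscle genes *Trim54*, *Trim55* and *Trim63*, and *Trim71*, which is known from stem cells. Genes of the TRIM protein class that carry other names were set beside the family. *Mefv*, which encodes the inflammasome protein pyrin and is known from neutrophils, was at 13.76, 11.52 and 12.85 FPKM in Lig, against 12.74, 14.38 and 12.98 FPKM in Ctrl (log2 fold change 0.001, edgeR adjusted p = 0.995). *Pml*, the organiser of nuclear bodies, was at 1.66, 2.93 and 1.56 FPKM in Lig, against 3.53, 2.27 and 2.87 FPKM in Ctrl (-0.42 ± 0.27, adjusted p = 0.349). *Rnf135*, which also attaches ubiquitin to RIG-I, was at 0.94, 0.94 and 1.44 FPKM in Lig, against 0.9, 0.91 and 1.27 FPKM in Ctrl. None of the 3 tested was called.

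A list of 30 ubiquitin-conjugating enzymes, sensors and adaptors with which TRIM proteins work was read in the same fit. Of 29 tested, 2 rose and 2 fell (13.8%, near the 10.4% of all genes), and the median log2 fold change was 0.06. *Ddx58*, which encodes the sensor RIG-I, rose, with 9.5, 9.56 and 8.97 FPKM in Lig, against 7.96, 7.51 and 8.22 FPKM in Ctrl (0.32 ± 0.06, edgeR adjusted p = 0.0221). *Isg15*, a ubiquitin-like modifier induced by interferon, rose, with 20.64, 21.24 and 19.43 FPKM in Lig, against 16.86, 15.95 and 15.21 FPKM in Ctrl (0.43 ± 0.10, adjusted p = 0.0365). *Tab2*, the TAK1 adaptor, fell to 19.02, 17.13 and 17.14 FPKM in Lig, against 27.77, 28.45 and 28.32 FPKM in Ctrl (-0.59 ± 0.06, adjusted p = 0.00479). *Zc3hav1*, the antiviral protein ZAP for which *Trim25* is a cofactor, fell to 50.04, 55.33 and 55.16 FPKM in Lig, against 65.43, 70.42 and 67.0 FPKM in Ctrl (-0.26 ± 0.06, adjusted p = 0.0399). The call of *Tab2* was kept in all 6 fits without 1 library. The calls of *Ddx58*, *Isg15* and *Zc3hav1* were lost in each of these 6 fits, with an edgeR adjusted p of up to 0.0685, 0.124 and 0.112. Over all genes, these fits called 278 to 694 of 9632, against 1000 with all 6 libraries. *Zc3hav1* was also lost with genes from 0.1 FPKM (0.0835) and with no filter (0.114), *Isg15* with no filter and with 5 FPKM (0.0557 in both), *Ddx58* and *Isg15* with library size alone (0.0534 and 0.0661), and *Ddx58* with limma (up to 0.166 with TPM). For these 4 genes the Lig and Ctrl libraries did not overlap, and the levels of mRNA say nothing of protein or ubiquitination.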

How the data were processed

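Gene expression was measured by paired-end RNA sequencing in 3 Lig and 3 Ctrl libraries, and groups and replicate numbers were taken from the labels. The submitters' processing notes name cutadapt 1.9, FastQC and the genome build GRCm38. Not given in the sources used here are aligner, counter, strandedness and annotation release. FPKM, without further scaling between libraries, and expected counts were deposited by the authors in a single table. The deposited expected counts were whole numbers, and among those from 1 to 16 multiples of 4 made up 40.2% to 41.3% in each library, beside 25% for an even spread. They may hold about 4 counts per read pair (12.7 to 15.4 M pairs per library), so counts divided by 4 were an alternative.

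Genes averaging 1 FPKM or more were tested on the counts with edgeR 4.0.16 in R 4.3.3 (quasi-likelihood, TMM factors of 0.967 to 0.976 in Lig and 1.01 to 1.05 in Ctrl, group as the only term), two-sided, with p-values adjusted over all 9632 genes at a threshold of 0.05. The SE was the size of the log2 fold change divided by the square root of F. The scripts were tested on simulated data. Alternatives covered the filter (none, 0.1 or 5 FPKM), scaling, DESeq2 1.42.0, limma 3.58.1 on log2 values with a pseudocount of 1 or 0.1, TPM computed from FPKM, a replicate block and leaving out each library. Replicate numbers were not taken as pairs.

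The members, lists and tests were chosen with earlier results of these data known. Named were members called, the 10 most abundant, and interferon, chromatin and erythroid members above 0 in all libraries. *Trim3*, *Trim30c*, *Trim36*, *Trim44*, *Trim58*, *Trim66*, *Trim72* and *Mavs* lie outside that rule and were chosen after their values were seen, as were genes named to spell out a count, a group or a promoter match. Of the list of partners, the genes called are named. Promoter windows are from RefSeq (GRCm38.p6), and 100-base windows of the longest coding transcript, from GENCODE M21, were searched in the transcripts of other genes.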

Additional observations from a re-analysis of the deposited data

How the results depend on the processing

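Against 2 members higher and 0 lower, the counts of members called were 2 and 1 with no filter and with 0.1 FPKM, 1 and 1 with 5 FPKM and with limma on FPKM at either pseudocount, 3 and 0 with DESeq2 size factors and with counts divided by 4, 1 and 3 with library size alone and with TPM, 6 and 3 with DESeq2, and 0 and 0 with the replicate block, which left 54 calls over all genes, against 1000. The labels give libraries of the same number nothing else in common. Their deviations from the group means correlated at -0.061, -0.0959 and 0.0391, and not every library correlated best with its own number. Correlations among 3 libraries per group cannot settle whether libraries of the same number were handled together. With 1 library left out, 1 to 2 members were called higher and 0 to 1 lower, beside 278 to 694 of 9632 genes called. Over all genes, 667 of 25107 were called with no filter, 938 of 16707 with 0.1 FPKM and 604 of 4924 with 5 FPKM. DESeq2 size factors gave 1014 of 9632 and counts divided by 4 gave 1007. For limma on FPKM it was 864 and 856 at a pseudocount of 1 and 0.1. The median of the members (0.034) became -0.043 with no filter, 0.101 with 5 FPKM, -0.048 with library size alone, -0.038 and -0.043 with limma at a pseudocount of 1 and 0.1, and -0.117 with TPM, and lay between -0.059 and 0.089 with 1 library left out. *Trim30a* was called under 16 of 17 alternatives and lost with the replicate block (adjusted p = 0.0586 by edgeR), as were *Trim56* (0.106) and, with genes from 0.1 FPKM, *Trim10* (0.126). The block also ended the 4 calls among the partner genes, with an adjusted p of 0.0529 by edgeR for *Tab2*. Signs turned for *Trim25* (-0.031 with library size alone, -0.024 with limma at either pseudocount, -0.101 with TPM), *Trim41* (-0.007 with TPM), *Trim33* (-0.027 with 5 FPKM, -0.065 with library size alone, -0.052 and -0.062 with limma, -0.132 with TPM, -0.065 to 0.101 with 1 library left out), *Trim34a* (-0.049 with TPM, -0.056 to 0.185 with 1 library left out), *Trim5* (-0.009 with TPM) and *Trim14* (-0.208 to 0.066 with 1 library left out), none of which was called in any fit. The cause was not tested. How far depth limited the calls among members under 1 FPKM was not tested.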

Other observations

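*Mavs*, which encodes the mitochondrial adaptor that RIG-I and several TRIM proteins act on, was under the filter and is named after its values were seen. It had 0.18, 0.39 and 0.25 FPKM in Lig, against 0.83, 0.81 and 0.81 FPKM in Ctrl, without overlap. When genes from 0.1 FPKM were tested, its log2 fold change was -1.46 ± 0.31 (edgeR adjusted p = 0.0406), where 3.28% of genes were called lower. *Mavs* rested on 42 to 194 deposited counts per library. Whether its call holds with 1 library left out is not given here, and those fits called 109 to 494 of 16707 genes.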
